A study of Mus musculus with 6 samples.

Results

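The genes described here belong to the granule-exocytosis machinery of killer lymphocytes: the granzymes Gzmb, Gzmc, Gzmd and Gzme, the pore-forming protein perforin (Prf1), the granule proteins Nkg7 and Srgn, and the intracellular serpins Serpinb9 and Serpinb6b, which inhibit granzymes. The 9 genes were listed by symbol and matched through Ensembl identifiers to the table of 41388 genes, which held all 9. They were compared between 3 WT and 3 Irf1-/- cultures of Th9 cells, an in vitro subset of CD4+ T helper cells that secretes IL-9. All 6 cultures came from C57BL/6 mice of 8 to 12 weeks and were stimulated with anti-CD3 and anti-CD28 in medium with IL-2, IL-4 and TGF-β, with 5 ng per ml of IFN-γ present. The study's methods for Th9 cultures also list an antibody against mouse IFN-γ, and name the added IFN-γ as recombinant rat protein. RNA was taken on day 2. IRF1 is a transcription factor induced by IFN-γ, and the Irf1-/- mice lack it in every cell and not in T cells alone. The samples had no arm without IFN-γ, so a difference between genotypes is a difference in the presence of this cytokine.

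In cytotoxic cells, perforin opens the membrane of the target cell and granzymes, a family of serine proteases, enter and cleave proteins that start its death. Granzymes are stored in secretory lysosomes, bound to the proteoglycan serglycin, the product of Srgn. Serpinb9 inhibits granzyme B and Serpinb6b inhibits granzyme A in the mouse, and cells that make granzymes use such serpins to withstand protease that leaks from their own granules. CD4+ T cells can also make granzymes after strong stimulation.

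Of these genes, Serpinb9 differed most between the genotypes. It fell about 10.1-fold in Irf1-/- Th9 cells and the inhibitor Serpinb6b fell 1.57-fold, while Srgn rose 1.45-fold and Nkg7 fell 1.89-fold. Gzmb averaged 2.10-fold higher in Irf1-/- cells, but its libraries overlapped between genotypes and the difference did not pass the test. Gzmc and Prf1 had at most 2 reads in any library and Gzmd and Gzme had none. Of the 9 genes, 5 reached the mean normalized count of 10 needed for the test. Of these, 1 was called higher, against 11.4% of the 11379 genes tested, and 3 were called lower, against 12.4% of them. A gene was called where limma's test gave a Benjamini-Hochberg adjusted p below 0.05. The genotypes did not overlap for 4 of the 5, against 40.5% of all genes tested. The values are normalized counts, obtained by dividing each gene's reads by the size factor for that library, and fold changes were computed on the log2 of this value plus 1 as Irf1-/- minus WT. In RNA from whole cultures, fewer cells that express a gene and less RNA of it per cell cannot be told apart.

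**Figure D1:**
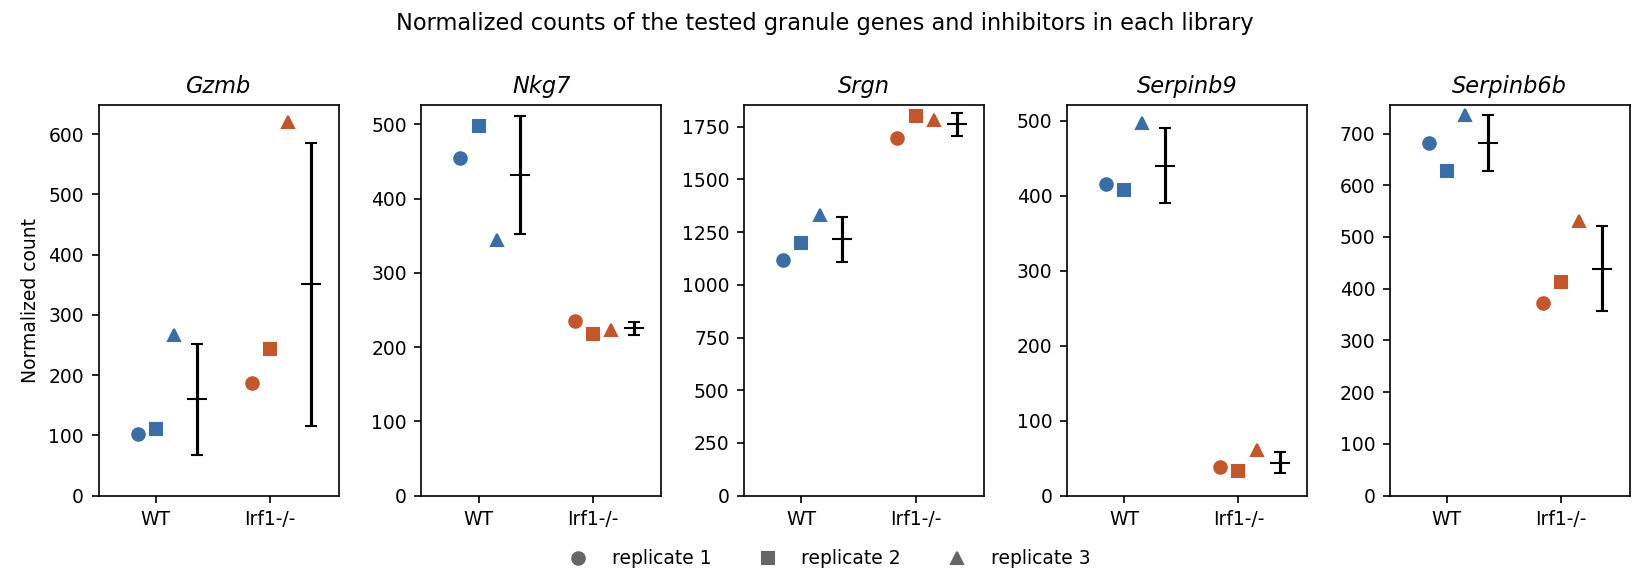
Normalized count (vertical axes, each from 0) of Gzmb, Nkg7, Srgn, Serpinb9 and Serpinb6b in 3 WT (blue) and 3 Irf1-/- (orange) libraries, with a symbol for each replicate number and the mean ± SD in black. Serpinb9 lies between 408 and 497 in WT and between 33.3 and 60.7 in Irf1-/- libraries, whereas for Gzmb WT replicate 3 lies above Irf1-/- replicates 1 and 2.

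The libraries differed in ways that bear on these genes. Reads on genes numbered from 6381576 to 13348230 in WT and from 5639788 to 12423511 in Irf1-/- libraries, and replicate 3 was the largest in both genotypes. WT replicates 1 and 2 held Y-linked transcripts, with Ddx3y at 849 and 939, whereas WT replicate 3 and the 3 Irf1-/- libraries held Xist at 16974 to 19404, so that the sex of the mice was mixed in WT and not in Irf1-/- libraries. Irf1 itself was at 2660 to 2968 in WT and at 1476 to 1780 in Irf1-/- libraries, and a table by gene does not show which exons these reads cover. Per the study's methods, naive CD4+ T cells were the starting cells, and CD4+ T cells were obtained from spleen and lymph nodes by magnetic depletion of other cells, a step that would remove CD8, NK, myeloid and B cells before culture. The 6 markers of CD4 T cells summed to 10445 to 11082 in WT and 9534 to 10078 in Irf1-/- libraries, with Cd3e and Trac called lower. The 2 CD8 markers summed to 32.4 to 41.2 in WT and 20.3 to 30.7 in Irf1-/- libraries, with Cd8a at 2.39 to 4.99 and Cd8b1 at 27.5 to 38.1 in WT and 17.9 to 27.5 in Irf1-/- libraries. All 6 NK cell markers were at or under 3 reads, and 4 of them, among which Ncr1 and Klrb1c, were at 0 in all libraries. The 8 myeloid markers summed to 18.7, 147 and 38.1 in WT and to 205, 986 and 18.5 in Irf1-/- replicates 1, 2 and 3, with Mpo and Elane at 0. The 7 mast cell and basophil markers summed to 30.7 to 45.7 in WT and 24.9 to 51.3 in Irf1-/- libraries, with Fcer1a at 0, and the 4 B cell markers to at most 19.4, with Pax5 at 0.

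Among the proteases, Gzmb was the granzyme with the most reads. It lies at chr14:56258838-56262260 of GRCm38 on the - strand, in a cluster that reaches over 145 kb to Gzme at chr14:56117626-56120625. The normalized counts of Gzmb were 102, 111 and 266 in WT replicates 1 to 3 and 187, 244 and 621 in Irf1-/- replicates 1 to 3. Replicate 3 was thus the highest in both genotypes, 2.50 times the mean of the other two in WT and 2.88 times in Irf1-/- cells, and WT replicate 3 lay above Irf1-/- replicates 1 and 2. The WT mean was 160 ± 92.3 and the Irf1-/- mean 351 ± 235 (SD, n = 3 each). The log2 fold change was 1.07 (standard error 0.43), which did not pass the adjustment in limma's test (unadjusted p = 0.0296, adjusted p = 0.095). An exact two-sided permutation test over the 6 libraries gave p = 0.3, where the smallest p that 3 against 3 allow is 0.1.

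The Gzmb difference depended on which libraries entered the comparison. Without WT replicate 3 the log2 fold change was 1.51 and was called (limma's adjusted p = 0.00789), and without Irf1-/- replicate 3 it was 0.56 and was not (adjusted p = 0.234). In replicates 1 and 2 alone it was 1.001 and was called (limma's adjusted p = 2.87e-08). With the level of Y-linked transcripts as a covariate it was 0.24 (limma's adjusted p = 0.719), which rests mainly on WT replicate 3 for WT. Among the 4 libraries with Xist, the single WT library had 266 and the log2 difference was 0.20, a choice of libraries made after seeing the data. Between libraries of the same number, the log2 difference was 0.87, 1.13 and 1.22 for replicates 1, 2 and 3, the last pair both with Xist. The sources used here do not state that the numbers pair the cultures. Library size and the sex-linked transcripts move with these values, and their part in the difference was not tested. In replicates 1 and 2 alone, and without WT replicate 3, every WT library held Y-linked transcripts and every Irf1-/- library held Xist. In these settings Gzmb was called, but genotype and sex cannot be told apart. It was also called with the replicate number added to the fit, a setting given with the alternatives at the end. The myeloid markers summed to 205, 986 and 18.5 in Irf1-/- replicates 1, 2 and 3, and to 18.7, 147 and 38.1 in WT. Gzmb was highest in Irf1-/- replicate 3, and the part of myeloid cells in the Gzmb difference was not tested.

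**Figure D2:**
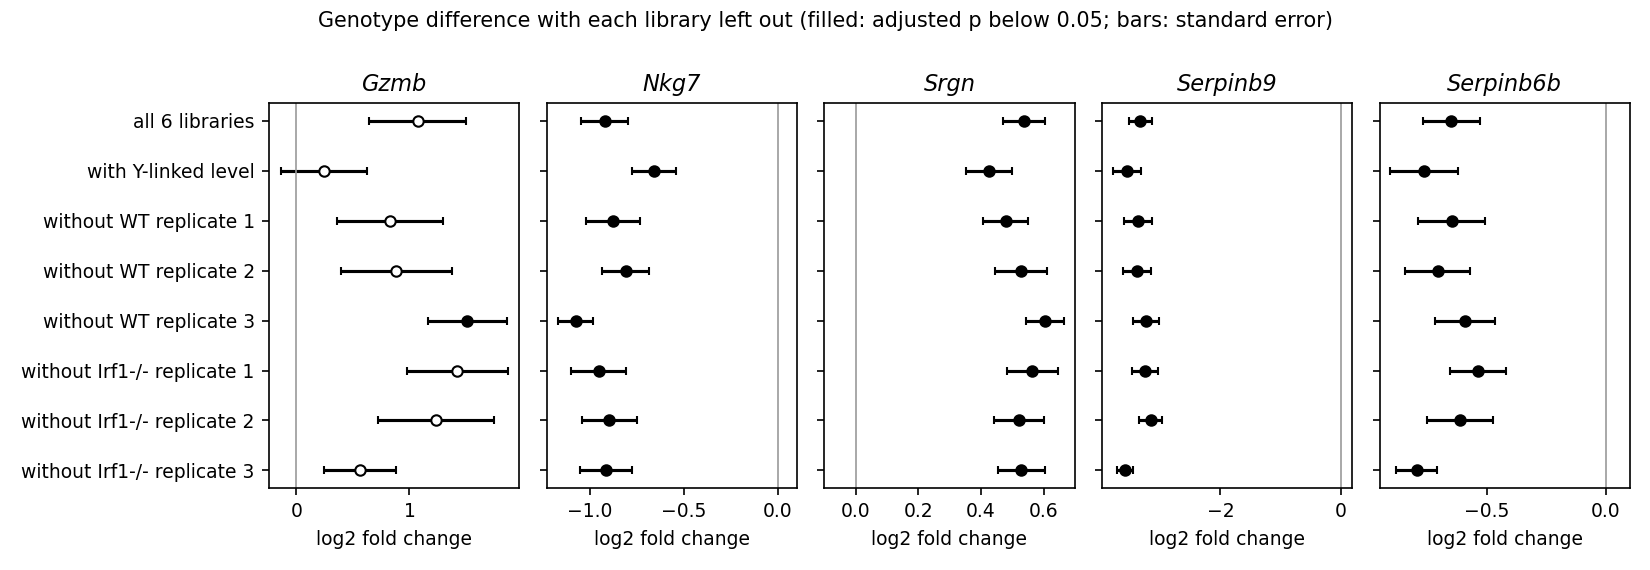
Log2 fold change (horizontal axes, Irf1-/- minus WT, bars for the standard error) of 5 genes with all 6 libraries, after adjustment for the Y-linked level, and with each library left out; filled points have an adjusted p below 0.05. Gzmb ranges from 0.24 to 1.51 and is filled only without WT replicate 3, whereas Nkg7, Srgn, Serpinb9 and Serpinb6b are filled in every setting shown.

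The promoter of Gzmb is shown beside that of Gzmc, because these genes of the same cluster had very different levels. The stretches are the 250 bases before the start given by RefSeq for build GRCm38.p6, on the - strand, at chr14:56262335-56262584 for Gzmb and chr14:56234658-56234907 for Gzmc. Capitals mark matches to the RUNX motif TGTGGT or its reverse complement and to the AP-1 motif TGANTCA.
Gzmb: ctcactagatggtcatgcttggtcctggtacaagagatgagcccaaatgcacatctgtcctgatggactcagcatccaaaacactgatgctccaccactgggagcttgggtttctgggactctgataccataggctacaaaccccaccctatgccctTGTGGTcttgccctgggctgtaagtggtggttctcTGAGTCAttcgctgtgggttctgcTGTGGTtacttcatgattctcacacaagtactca
Gzmc: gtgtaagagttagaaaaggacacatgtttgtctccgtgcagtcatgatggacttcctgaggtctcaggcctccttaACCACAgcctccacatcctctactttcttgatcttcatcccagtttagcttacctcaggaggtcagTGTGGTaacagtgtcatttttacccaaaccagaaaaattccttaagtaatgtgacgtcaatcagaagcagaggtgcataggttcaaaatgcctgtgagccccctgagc
The Gzmb stretch held 2 RUNX matches and 1 AP-1 match, and the Gzmc stretch held 2 RUNX matches. Of 32851 RefSeq promoter stretches of this length, 14.05% held the RUNX and 6.75% the AP-1 motif. The Gzmb and Gzmc stretches were 44.2% identical, against 94.8% between those of Gzmd and Gzme, which also had 2 RUNX matches each. No promoter of these 4 granzymes held the IRF motif AANNGAAA, which says only that these letters are not in this window. A match is a description of the sequence and does not show that a factor binds there.

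The other granzymes of the cluster and perforin were at the limit of detection. Gzmc (chr14:56231441-56234656, - strand) had 2, 0 and 0 reads in WT replicates 1 to 3 and 1, 0 and 2 reads in Irf1-/- replicates 1 to 3. Prf1 (chr10:61297833-61304680, + strand) had 1, 2 and 1 reads in the WT and 2, 0 and 2 reads in the Irf1-/- libraries. Gzmd (chr14:56129556-56132608, - strand) and Gzme had 0 reads in all 6 libraries. A count of 0 allows up to 3 reads, which corresponds to normalized counts between 1.84 and 4.16 in these libraries, so a lower level was not detectable at this depth and no fold change was computed for the 4 genes. The interval covers counting error only. Perforin mRNA was therefore near 0 in the same libraries that had 82 to 971 reads of Gzmb. Gzmd and Gzme have coding sequences that are 93.3% identical, and 21.9% and 20.7% of their 50-base windows occur in another gene, so reads from one could have been lost or counted to another. The study's methods give reads of 50 bases and the labels 59, and a longer window is shared at most as often. For Gzmb, Prf1, Nkg7 and Srgn no such window was shared.

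The 6 granzymes outside the named genes did not reach the test either. Gzmm, a granzyme of NK and innate-like T cells, had normalized counts of 4.99 to 10.7, and Gzma, the tryptase that Serpinb6b inhibits, had 1.19 to 6.24. Gzmf, Gzmg, Gzmk and Gzmn had at most 3 reads in any library. Thus 1 of the 10 granzymes measured, Gzmb, was above a mean of 10.

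The granule proteins Srgn and Nkg7 moved in opposite directions. Srgn (chr10:62493833-62527451, - strand), the proteoglycan core that packs granzymes, had normalized counts of 1118, 1200 and 1331 in WT and 1698, 1803 and 1783 in Irf1-/- replicates 1, 2 and 3. The lowest Irf1-/- library lay above the highest WT library. The mean rose from 1216 ± 107 (SD, n = 3) to 1761 ± 55.8 (SD, n = 3), or by 0.54 on the log2 scale (standard error 0.0684; limma's adjusted p = 0.000409). Srgn was at 1783 in Irf1-/- replicate 3, which had the lowest myeloid marker sum, and at 1803 in replicate 2, which had the highest. The part of myeloid cells in the Srgn difference was not tested. Srgn stayed called under all 18 alternatives run, at log2 fold changes from 0.43 to 0.60.

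Nkg7 (chr7:43437073-43438249, + strand), a granule membrane protein needed for the release of granule contents, had normalized counts of 454, 498 and 344 in WT and 235, 218 and 223 in Irf1-/- replicates 1, 2 and 3. All Irf1-/- libraries lay below the lowest WT library. The mean fell from 432 ± 79.1 (SD, n = 3) to 225 ± 8.96 (SD, n = 3), which is -0.92 on the log2 scale (standard error 0.12; limma's adjusted p = 0.000582). WT replicate 3, the WT library with Xist, was the lowest of the WT libraries, and after adjustment for the Y-linked level the log2 difference was -0.66 (limma's adjusted p = 0.00195). NK cells also carry Nkg7, and their 6 markers summed to 0 in the WT and to 0.639 to 2.39 in the Irf1-/- libraries. CD8 T cells carry it too, and their marker sum was lower in Irf1-/- libraries without overlap, at 20.3 to 30.7 against 32.4 to 41.2 in WT. Among the WT libraries this sum was highest in replicate 3, where Nkg7 was lowest, and the part of CD8 T cells in the Nkg7 difference was not tested. The promoter is shown because 3 of the motifs searched occur in it. It lies at chr7:43436888-43437137, and capitals mark, from left to right, the STAT motif TTCNNNGAA, the RUNX motif on the opposite strand and the T-box motif GGTGTGA.
Nkg7: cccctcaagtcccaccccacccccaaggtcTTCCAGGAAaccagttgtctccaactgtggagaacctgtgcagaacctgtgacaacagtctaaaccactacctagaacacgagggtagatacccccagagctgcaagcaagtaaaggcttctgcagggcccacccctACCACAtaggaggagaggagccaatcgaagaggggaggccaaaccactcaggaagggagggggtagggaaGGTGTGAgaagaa
The T-box match lay at -13 to -7 from the RefSeq start. By the annotation used for gene positions, Nkg7 begins further upstream, so this match lies inside the gene. The STAT motif occurred in 7.02% and the T-box motif in 3.33% of all promoter stretches of this length.

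The inhibitors Serpinb9 and Serpinb6b are neighbours on chromosome 13 and both fell. Serpinb9 (chr13:33003250-33017957, + strand), the inhibitor of granzyme B, had normalized counts of 416, 408 and 497 in WT and 38.2, 33.3 and 60.7 in Irf1-/- replicates 1, 2 and 3. In reads, the Irf1-/- libraries had 32, 24 and 95 on this gene. The mean fell from 440 ± 49.7 (SD, n = 3) to 44.1 ± 14.6 (SD, n = 3), which is -3.33 on the log2 scale (standard error 0.19; limma's adjusted p = 2.45e-06). Of the 11379 genes tested, 17 with Serpinb9 itself included had a log2 fold change at or below this value. Over the 18 alternatives it ranged from -3.58 to -3.08 and was called in all of them.

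Serpinb6b (chr13:32965209-32979067, + strand), the inhibitor of granzyme A, had normalized counts of 681, 628 and 736 in WT and 373, 413 and 531 in Irf1-/- replicates 1, 2 and 3. The groups did not overlap, and replicate 3 was the highest in both genotypes. The mean fell from 682 ± 54.1 (SD, n = 3) to 439 ± 82.3 (SD, n = 3), which is -0.65 on the log2 scale (standard error 0.12; limma's adjusted p = 0.00339). It was called under all 18 alternatives, at values from -0.79 to -0.54. The coding sequences of Serpinb9 and Serpinb6b are 66.3% identical. Of the 50-base windows of Serpinb6b, 2.92% occur in another gene, and for Serpinb9 this was 0.378%, the share in which reads could be placed on a relative. Their 24.2 kb gap holds no tested gene. The other tested gene within 500000 bases of Serpinb9, Wrnip1, was at -0.16 on the log2 scale (limma's adjusted p = 0.194), a window chosen after the values were seen.

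The promoters of the pair are shown because both genes fell in Irf1-/- cells. They lie at chr13:33004291-33004540 for Serpinb9 and chr13:32965011-32965260 for Serpinb6b on the + strand, and capitals mark matches to the IRF motif AANNGAAA on the opposite strand.
Serpinb9: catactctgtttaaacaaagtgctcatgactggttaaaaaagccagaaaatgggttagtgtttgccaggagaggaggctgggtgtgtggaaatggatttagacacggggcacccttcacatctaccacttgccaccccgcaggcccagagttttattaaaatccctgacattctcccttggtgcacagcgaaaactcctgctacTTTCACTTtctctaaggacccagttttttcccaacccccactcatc
Serpinb6b: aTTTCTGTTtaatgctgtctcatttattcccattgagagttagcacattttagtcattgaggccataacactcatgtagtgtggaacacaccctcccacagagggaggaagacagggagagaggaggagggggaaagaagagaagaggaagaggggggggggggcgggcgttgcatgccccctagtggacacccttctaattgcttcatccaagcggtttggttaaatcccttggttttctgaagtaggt
The Serpinb9 match lay at -46 to -39 from the start, and the Serpinb6b match at -249 to -242. Among all promoter stretches of this length 21.3% held the IRF motif on either strand, and a match does not show binding. Outside the 9 genes, it also occurred before Gzma, Gzmn and the upstream starts of Gzmm and Serpinb6a. It did not occur before Gzmf, Gzmg or Gzmk. The RefSeq starts of Serpinb9 and Serpinb6b lie inside the genes as drawn by the annotation used for gene positions, where both begin further upstream. By that annotation the Serpinb9 match lies inside its gene and the Serpinb6b match before its gene. Srgn, which rose, has 2 RefSeq starts. The 250 bases before the downstream start (chr10:62507758-62508007) held 2 IRF matches and 1 RUNX match, and those before the upstream start (chr10:62527446-62527695) held none of the 5 motifs. No matches overlapped each other in the stretches of the 9 genes.

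**Figure D3:**
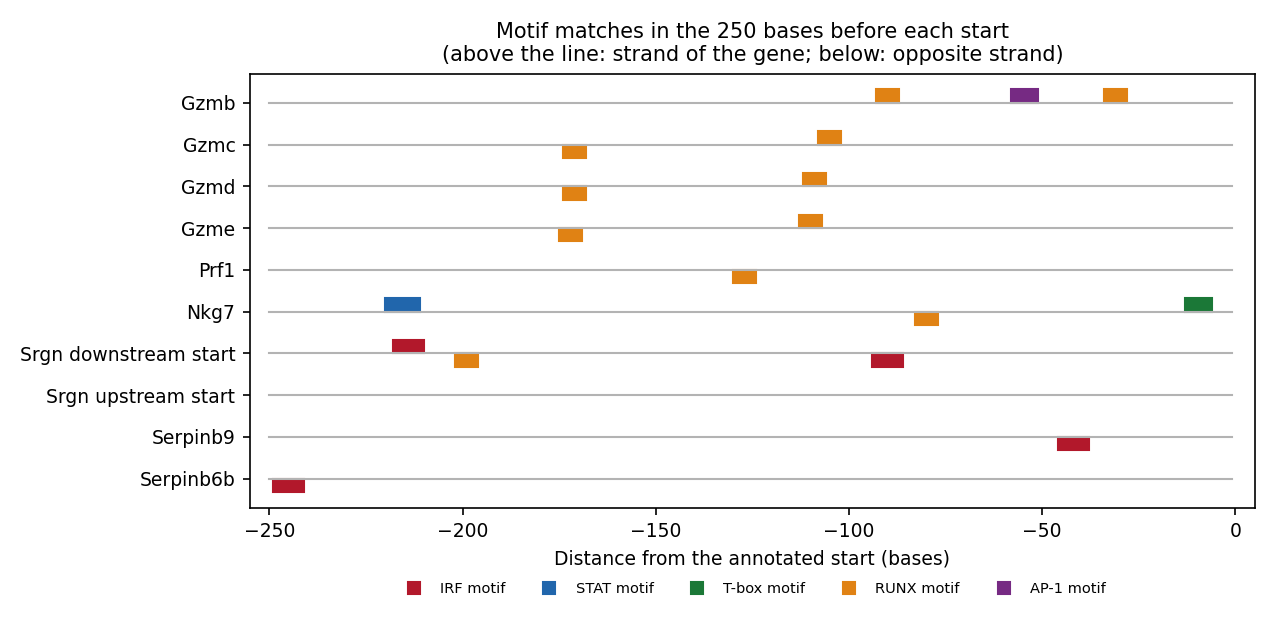
Matches to 5 motifs (coloured boxes) in the 250 bases before the RefSeq starts of the 9 genes, by distance from the start in bases, above the line on the strand of the gene and below it on the opposite strand. Among these 9 genes, the IRF motif occurs before Serpinb9, Serpinb6b and the downstream start of Srgn and not before Gzmb, Gzmc, Gzmd, Gzme, Prf1 or Nkg7.

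Levels were set side by side between genes per kilobase of exonic length. In WT cells the order of the means was Srgn with 554 ± 48.8 normalized counts per kilobase, Nkg7 with 473 ± 86.6, Serpinb6b with 301 ± 23.9, Serpinb9 with 126 ± 14.2 and Gzmb with 111 ± 64.3 (SD, n = 3 for each). The ranges of Srgn and Nkg7 overlapped, as did those of Serpinb9 and Gzmb, so these neighbours were not separated beyond their spread on this scale. In Irf1-/- cells the order was Srgn with 802 ± 25.4, Nkg7 with 247 ± 9.80, Gzmb with 244 ± 164, Serpinb6b with 194 ± 36.4 and Serpinb9 with 12.6 ± 4.19. The range of Gzmb, from 131 to 432, covered those of Nkg7 and Serpinb6b, and Serpinb9 lay below all others. With coding length in place of exonic length, the order was the same in WT cells, but the neighbours no longer overlapped. Srgn was then at 2452 to 2918 against 695 to 1005 for Nkg7, and Serpinb9 at 363 to 443 against 138 to 359 for Gzmb. In Irf1-/- cells, Gzmb and Nkg7 changed places.

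The level of Gzmb relative to its inhibitor was higher in each Irf1-/- library than in any WT library. The ratio of Gzmb to Serpinb9 in normalized counts per kilobase was 0.599, 0.660 and 1.30 in WT replicates 1, 2 and 3. It was 11.9, 17.8 and 24.9 in Irf1-/- replicates 1, 2 and 3, a mean of 18.2 ± 6.47 against 0.854 ± 0.390 (SD, n = 3). The groups did not overlap, and an exact two-sided permutation test on the log2 ratio gave p = 0.1, the smallest that 3 against 3 libraries allow. Most of this difference lay in Serpinb9, which fell about 10.1-fold. That fall by itself keeps the ratios of the genotypes apart, so this p-value is not separate evidence about Gzmb. Relative to Serpinb6b, Gzmb was at 0.237, 0.278 and 0.570 in WT and at 0.793, 0.930 and 1.84 in Irf1-/- libraries, again without overlap (exact permutation p = 0.1). Relative to Srgn, the ratio was 0.140, 0.141 and 0.306 in WT and 0.169, 0.207 and 0.532 in Irf1-/- libraries, and the groups overlapped. The size of these ratios depends on the length used, and the fold between genotypes does not. By coding length the ratio of Gzmb to Serpinb9 was 0.373, 0.411 and 0.810 in WT and 7.43, 11.1 and 15.5 in Irf1-/- libraries, and the mean ratio to Srgn in WT was 0.0787 in place of 0.196. These are ratios of mRNA per length and not of protein.

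**Figure D4:**
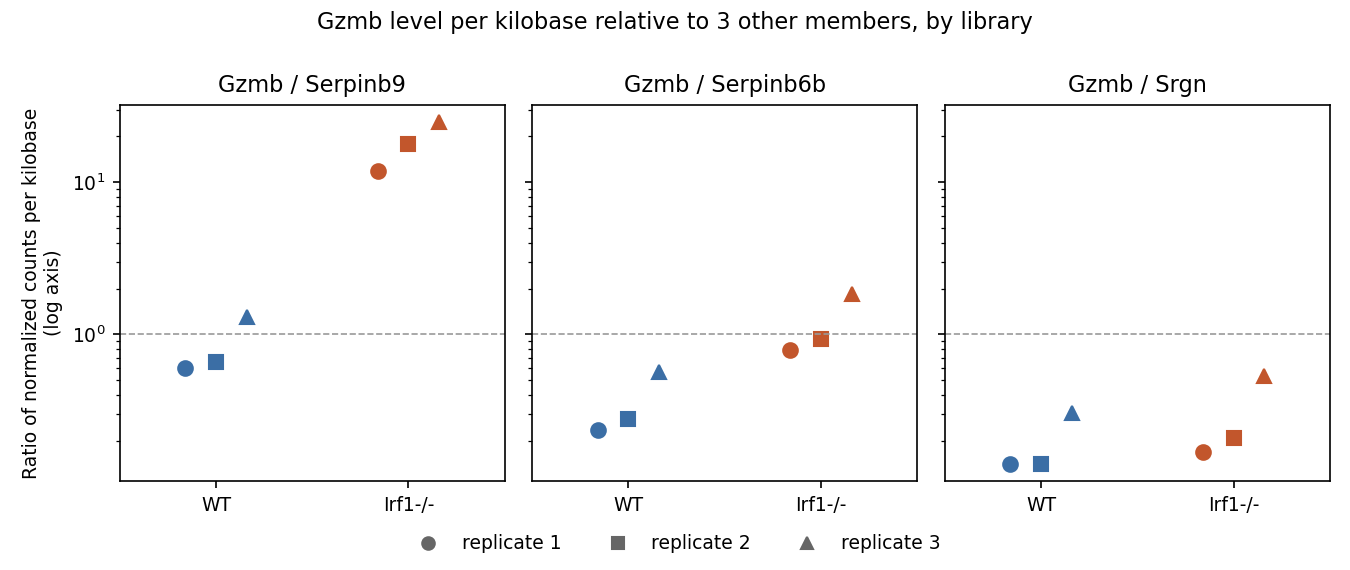
Ratio of normalized counts per kilobase of Gzmb to Serpinb9, to Serpinb6b and to Srgn (log axis, dashed line at a ratio of 1) in each WT (blue) and Irf1-/- (orange) library, with a symbol for each replicate number. By exonic length, the ratio to Serpinb9 is between 0.599 and 1.30 in WT and between 11.9 and 24.9 in Irf1-/- libraries.

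Of 23 genes found for the maturation and release of granules, 22 were tested, 3 were called higher and 1 lower, against 11.4% and 12.4% of all genes tested, and 18 did not pass the test. Their median log2 fold change was 0.10, against 0.00 over all genes tested. Sytl1, a synaptotagmin-like protein that binds Rab27 on secretory granules, had normalized counts of 54.9, 70.9 and 65.2 in WT and 164, 226 and 202 in Irf1-/- replicates 1, 2 and 3. It rose by 1.61 on the log2 scale (standard error 0.15, adjusted p = 6.05e-05 from limma). Crtam, a surface receptor that marks CD4+ T cells with cytotoxic features, was low, at 6.24, 3.61 and 2.46 in WT and 20.3, 16.6 and 15.3 in Irf1-/- libraries, and rose by 1.91 (limma's adjusted p = 0.00678). With a pseudocount of 10 in place of 1 this was 0.96. Ctsl, the lysosomal protease cathepsin L, rose by 0.77 (adjusted p = 0.00364), from 86.2 ± 10.9 to 148 ± 20.8 (SD, n = 3). Calr, the chaperone calreticulin, fell by 0.21 (adjusted p = 0.00798), from 7784 ± 180 to 6709 ± 88.9 (SD, n = 3), and was not called when the mean-variance trend was left out of the fit (adjusted p = 0.0528).

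Ctsc, the dipeptidyl peptidase that processes progranzymes, did not pass the test and was at 1015 to 1184 in WT and 1143 to 1243 in Irf1-/- libraries. The other genes not called, among them Unc13d, Rab27a, Stx11, Stxbp2, Lamp1 and Fasl, had log2 fold changes between -0.32 (Sytl2) and 0.76 (Sytl3). Cd63 was below the mean of 10, and Vamp7 was not analysed here.

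**Figure D5:**
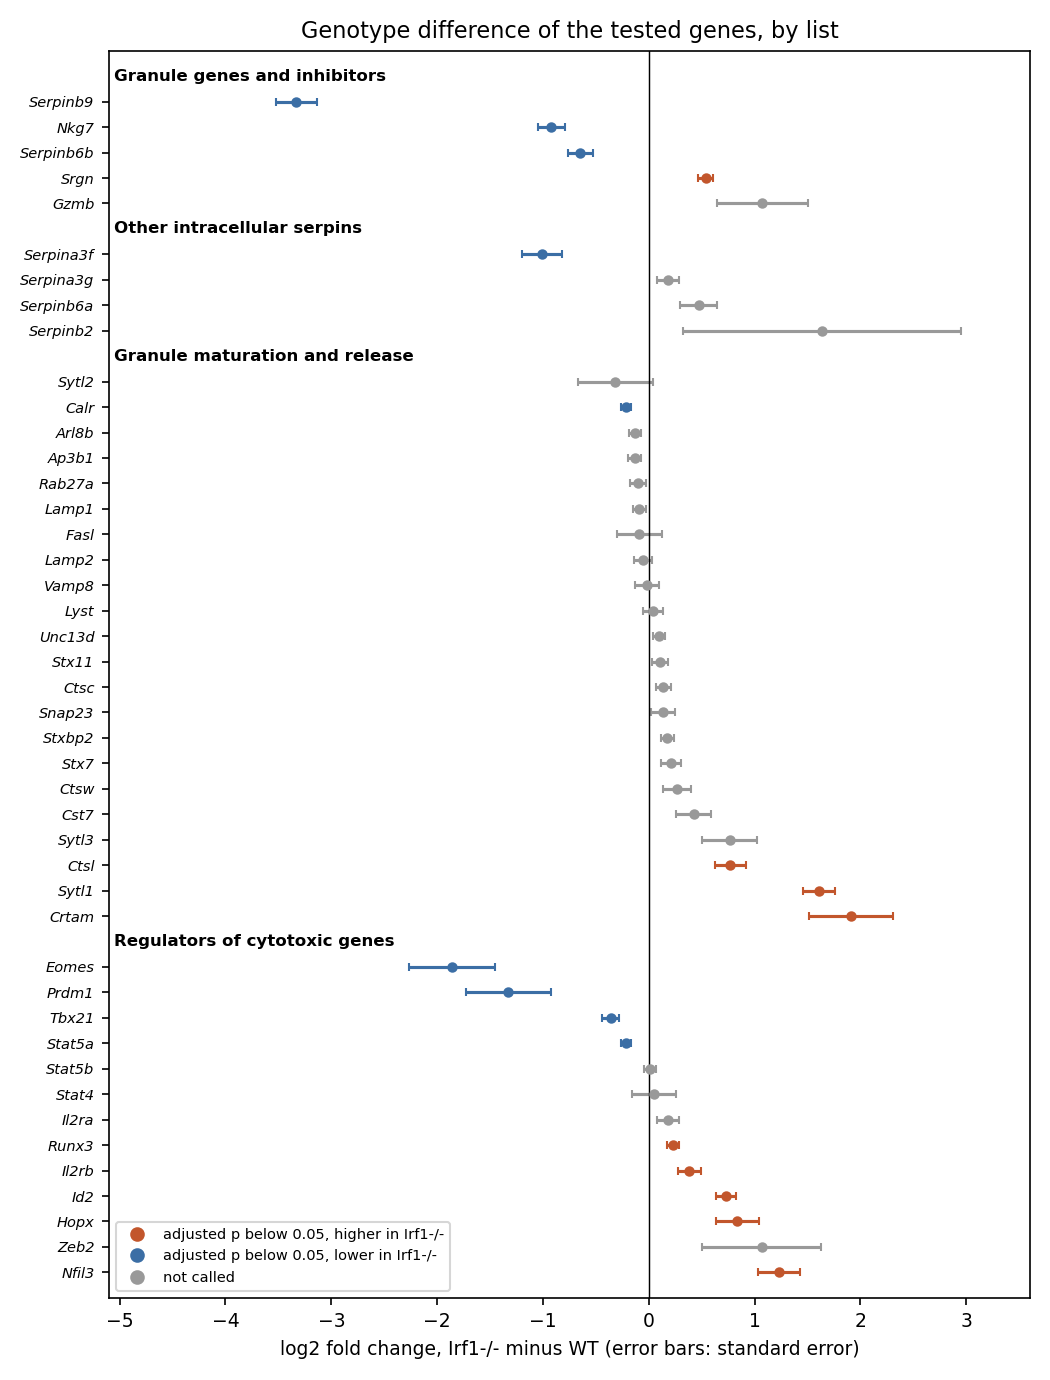
Log2 fold change (horizontal axis, Irf1-/- minus WT, bars for the standard error) of each tested gene of the named set and of 3 further lists, orange where called higher, blue where called lower and grey where not called. Serpinb9 lies at -3.33, the lowest value shown, and most granule maturation and release genes lie near 0.

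Of 21 other intracellular serpins, 4 were tested and 16 had at most 3 reads in any library. Of the 4, 1 was called lower and 0 higher, against 12.4% and 11.4% of all genes tested. Serpina3f, a clade A serpin without a secretion signal, fell from 382 ± 90.3 to 188 ± 40.9 (SD, n = 3), or -1.01 on the log2 scale (limma's adjusted p = 0.00393). The WT library with Xist was at 278 and the WT libraries with Y-linked transcripts at 429 and 439, and after adjustment for the Y-linked level the log2 difference was -0.63 (limma's adjusted p = 0.0246). Its relative Serpina3g, an inhibitor of cathepsins, was at 624 to 819 in WT and 746 to 907 in Irf1-/- libraries and was not called, at 0.18 (limma's adjusted p = 0.248). Serpinb6a, with a coding sequence 81.2% identical to that of Serpinb6b, was at 62.4 to 70.1 in WT and 71.6 to 112 in Irf1-/- libraries, a difference of 0.47 on the log2 scale that did not pass (limma's adjusted p = 0.0747). Every Irf1-/- library lay above the WT libraries. Serpinb2, an inhibitor of plasminogen activators made by myeloid cells, was at 3.74, 28.9 and 22.1 in WT and 51.3, 448 and 3.20 in Irf1-/- libraries and was not called. Its highest value stood in Irf1-/- replicate 2, which had the highest myeloid marker sum, and the part of myeloid cells left after the magnetic depletion was not tested. Without Irf1-/- replicate 3, Serpinb6a at 0.64 and Serpinb2 at 3.37 on the log2 scale were called (limma's adjusted p = 0.0182 and 0.0150).

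Among 13 regulators of cytotoxic genes, all tested, 5 were called higher and 4 lower, against 11.4% and 12.4% of all genes tested, with a median log2 fold change of 0.18. Nfil3, a basic leucine zipper factor needed for NK cell development, had normalized counts of 175, 153 and 282 in WT and 396, 445 and 553 in Irf1-/- replicates 1, 2 and 3, and rose by 1.23 on the log2 scale (adjusted p = 0.00176 from limma). WT replicate 3, with Xist, was the highest WT library, and after adjustment for the Y-linked level the rise was 0.76 (limma's adjusted p = 0.00394). Id2, an inhibitor of E proteins, rose by 0.73 (adjusted p = 0.000438), from 256 ± 17.7 to 425 ± 41.4 (SD, n = 3). Eomes, a T-box factor that drives Prf1 and Gzmb in killer cells, was at 33.7, 33.7 and 51.0 in WT and 8.36, 5.55 and 20.5 in Irf1-/- libraries, and fell by 1.86 (limma's adjusted p = 0.00869), or by 1.25 with a pseudocount of 10. These 3 genes were called under all alternatives in which they were tested.

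The calls of the other regulators were less stable. Tbx21, the T-box factor T-bet, was at 1254 to 1549 in WT and 1039 to 1155 in Irf1-/- libraries, and fell by 0.36 (limma's adjusted p = 0.0108). Its call was lost after adjustment for the Y-linked level, at -0.19 (limma's adjusted p = 0.109). Here and below, this adjustment leaves mainly WT replicate 3 to stand for WT. Hopx, a homeodomain protein of effector T cells, rose by 0.84, Runx3, the RUNX factor of CD8 T cells, by 0.23 and Il2rb, the beta chain of the IL-2 receptor, by 0.38. Prdm1, the repressor Blimp-1, fell by 1.33 at normalized counts under 20 (by 0.68 with a pseudocount of 10), and Stat5a, which signals from the IL-2 receptor, fell by 0.22. The largest adjusted p of Il2rb over the alternatives was 0.273, after adjustment for the Y-linked level, where its log2 difference was 0.13. For Hopx and Runx3 it came in the same setting, 0.0899 at a difference of 0.69 and 0.0837 at 0.20. For Prdm1 it was 0.206 in replicates 1 and 2 alone, at -0.89, and for Stat5a 0.0553 without the mean-variance trend, at an equal difference of -0.22. Single libraries ended these calls: WT replicate 1 or 2 for Tbx21 (limma's adjusted p = 0.0540 and 0.0557 without them), WT replicate 2 for Stat5a (0.0510), and WT replicate 1 or Irf1-/- replicate 2 for Hopx (0.0584 and 0.0607). Runx3 lost its call when replicate 1 or 2 of either genotype was left out (0.0690 to 0.0744). Il2rb lost it when any library other than WT replicate 3 was left out (0.0532 to 0.114), and Prdm1 when any library other than Irf1-/- replicate 2 was left out (0.0584 to 0.108). Only 4 of the 13 regulators were called without WT replicate 1, without WT replicate 2, or after adjustment for the Y-linked level. Over all genes, the calls fell in the same settings from 1293 to 808, 799 and 856 higher and from 1406 to 829, 826 and 1099 lower. Stat4, Stat5b, Il2ra and Zeb2 were not called.

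The genes most like Gzmb were looked for across all genes tested. The 5 tested genes outside the lists whose log2 values had the highest Pearson correlation with those of Gzmb over the 6 libraries were Themis (0.997), Ppp3cc (0.993), Tmem131l (0.993), Pik3r5 (0.993) and Zfp709 (0.992), chosen as the highest of all genes tested. Themis, a signalling protein of the T cell receptor, was at 529, 537 and 760 in WT and 682, 721 and 1122 in Irf1-/- replicates 1, 2 and 3. Like Gzmb it was highest in replicate 3 of both genotypes, overlapped between genotypes and was not called (log2 fold change 0.45, adjusted p = 0.102 from limma). None of the 5 genes was called. The 6 points share their size factors and the split by library size, so the correlation is only a description.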

How the data were processed

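Poly(A) RNA of 3 WT and 3 Irf1-/- T cell cultures was sequenced as single-end reads. The authors aligned the reads with STAR 2.4.0b to GRCm38, counted them on genes of Ensembl release 76 with featureCounts and deposited a signal, the counts divided by DESeq2 size factors. Strand setting and the treatment of reads matching several genes are not given in the sources used here. All values above 0 were whole multiples of a step (tolerance 0.001), which gave back whole reads for 100% of them, so that edgeR and DESeq2 could serve as alternatives.

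Genes with a mean of at least 10 were tested with limma 3.58.1 in R 4.3.3 (eBayes with trend) on log2 of the normalized count plus 1, with Benjamini-Hochberg adjustment over 11379 genes. Alternatives used a pseudocount of 0.1 or 10, a mean of 50 or no filter, TMM and quantile normalization, no trend, a replicate block, a Y-linked covariate, replicates 1 and 2 alone, each library left out, edgeR 4.0.16 and DESeq2 1.42.0. The scripts were tested on simulated data. The study calls its 3 samples a genotype independent biological samples. Members and lists were chosen with earlier results of these data known. Named are the 9 members, every called gene of the lists, the other list genes as examples of counts and ranges, and the 5 genes most like Gzmb. Promoters came from RefSeq (GRCm38.p6), where all 9 members matched, and gene positions, lengths and coding sequences from GENCODE vM21, whose coding sequences stood in for protein sequences.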

Additional observations from a re-analysis of the deposited data

How the results depend on the processing

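The counts of called members were stable in 1 direction: 3 were called lower under all 18 alternatives, and 1 was called higher except that Gzmb joined Srgn (2 called) with the replicate block and with replicates 1 and 2 only. Leaving out 1 library at a time, 1 to 2 members were called higher, 2 only without WT replicate 3. Pseudocounts, filters, TMM, quantile normalization, edgeR and DESeq2 moved no count by over 1.5 times. None of the 19 genes refitted (the 5 members tested and the called genes of the granule, serpin and regulator lists) changed sign under any alternative, and the median of all genes stayed between -0.0149 and 0.0163 on the log2 scale.

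Same-numbered libraries deviated together by a correlation of 0.0922, 0.269 and 0.321 for numbers 1, 2 and 3, and each library correlated best with its own number, a hint from the data and not from the design. The replicate block moved the genes called higher from 1293 to 1893 and those called lower from 1406 to 2116. It gave 8 called granule maturation and release genes against 4, and 3 called intracellular serpins against 1. With the block, Gzmb kept its log2 fold change of 1.07 and was called (adjusted p = 3.15e-08 from limma).

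With replicates 1 and 2 only, 9 granule genes and 3 intracellular serpins were called, while over all genes 1810 were called higher and 2085 lower. Adjusted for Y-linked transcripts, 856 genes were called higher, and 2 serpins and 4 regulators were called. That fit rests mainly on WT replicate 3 for WT. Without a trend, 807 genes were called lower and 5 regulators were called. The cause of these changes was not tested. With 1 library left out, the genes called higher ranged from 799 to 1372 and those called lower from 826 to 1472. The granule genes called then ranged from 4 to 6, the serpins from 1 to 3 and the regulators from 4 to 10. By coding length, 3 of 5 members kept their place in the order of the Irf1-/- cells. The pair of larger libraries alone gave a log2 difference of 1.22 for Gzmb. Depth limits Gzmc, Gzmd, Gzme and Prf1, for which no difference was detectable.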
